A study of Rattus norvegicus with 9 samples.

Results

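Platelet-derived growth factors (PDGFs) and their receptors form a family of 6 genes, the ligand genes Pdgfa, Pdgfb, Pdgfc and Pdgfd and the receptor genes Pdgfra and Pdgfrb. Their expression was followed in rat lung fibroblasts at postnatal days 2, 7 and 21. A probe set (a group of short array probes designed against the same transcript) was taken for a member where that member was its only gene symbol in the platform annotation. Where a gene had several such probe sets, the brightest by mean log2 intensity over the 9 arrays represented it. By this rule 5 of the 6 genes were measured, with 7 probe sets, out of 14217 genes and 31042 probe sets in all. Pdgfb had no probe set that carried its symbol alone, so no value is given for it. The rule chose members by gene symbol and not by how they changed.

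The cells came from rat lungs without any genetic change or treatment, and the groups differed in the age of the pups. Each day had 3 arrays, each from a different litter, with the cells of 5 pups pooled per sample at day 2 and of 4 pups at days 7 and 21. The lungs were dispersed with trypsin and collagenase, and the cells that quickly stuck to plastic were taken as fibroblasts and used without further culture. The study chose the days to flank septation, the step in which ridges grow out of the walls of the air sacs and divide them into alveoli.

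PDGFs are dimers that bring receptor tyrosine kinases together at the cell surface. PDGF-A acts through the alpha receptor, and in the lung this pair is required for the spread of the fibroblasts that become alveolar myofibroblasts, the contractile, elastin-making cells at the septal tips. PDGF-B, made largely by endothelium, recruits pericytes, which carry the beta receptor. PDGF-C and PDGF-D are secreted with an extra CUB domain and become active only after proteases such as tissue plasminogen activator or urokinase cut it off.

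The measured members followed separate courses. Pdgfra had its highest mean at day 7, although its step up from day 2 did not pass the test. From day 7 to day 21 it fell by 1.40 on the log2 scale, to a level 2.64-fold lower. Pdgfa, which encodes a ligand of this receptor, rose 1.58-fold over the same interval. Pdgfrb rose 1.78-fold from day 2 to day 7 on its brightest probe set, but the estimates of its 3 probe sets differed. Pdgfc and Pdgfd stayed close to the low end of the arrays and did not pass the test in any comparison.

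The promoters of Pdgfa and Pdgfra are shown because these genes moved in opposite directions between days 7 and 21. Each is the 250 bases before the gene's start in RefSeq (build GRCr8), written 5′ to 3′ along the gene. In capitals are matches on either strand to 4 motifs, the GC box (GGGCGG), the CCAAT box (CCAAT), the TATA box (TATAAA) and the AP-1 motif (TGANTCA).
Pdgfa promoter, GRCr8 chr12:20759116-20759365, plus strand: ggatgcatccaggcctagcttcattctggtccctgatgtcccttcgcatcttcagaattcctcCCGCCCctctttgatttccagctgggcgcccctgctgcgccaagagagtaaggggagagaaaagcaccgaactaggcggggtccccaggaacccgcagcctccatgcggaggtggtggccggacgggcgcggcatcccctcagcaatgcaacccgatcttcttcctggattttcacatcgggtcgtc
Pdgfra promoter, GRCr8 chr14:33408517-33408766, minus strand: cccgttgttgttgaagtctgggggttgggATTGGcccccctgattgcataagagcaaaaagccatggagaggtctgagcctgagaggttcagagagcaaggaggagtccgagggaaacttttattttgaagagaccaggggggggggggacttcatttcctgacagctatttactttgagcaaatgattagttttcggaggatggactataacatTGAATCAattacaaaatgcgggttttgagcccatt
The Pdgfa stretch held 60.8% G and C, and 1 GC box that begins 187 bases before the start and reads CCGCCC on the strand shown. The Pdgfra stretch held 47.2% G and C, and a CCAAT box that begins 221 bases before the start and reads ATTGG. It also held a match to the AP-1 motif that begins 35 bases before the start and reads TGAATCA. The N of that motif allowed any base and was A here. Of the 33469 rat promoters of this length, 30.5% held a GC box, 34% a CCAAT box, 12.9% a TATA box and 6.34% an AP-1 motif, and the median G and C content was 51.2%. No capitals overlap in these stretches. RefSeq promoters were found for 5 of the 6 members. Pdgfb and Pdgfd each had 1 GC box, at 207 and 114 bases before the start, and Pdgfc had no match to any of the 4 motifs. A match describes the letters and is not a measured binding site.

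The arrays gave intensities of similar scale, with medians from 37.9 to 50.4 and a correlation across probe sets of 0.976 to 0.988 between arrays of a day, against 0.880 to 0.974 between days. The low end of the arrays was set at the 25th percentile of all values, a log2 intensity of 4.25. Markers of fibroblasts were strong on every day. The collagen gene Col3a1 averaged 12.98, 13.07 and 13.18 at days 2, 7 and 21, the intermediate filament gene Vim 12.66, 12.57 and 12.58, and 0 of 24 general fibroblast markers were below the low end on any day. Not all of the 24 were as steady. From day 7 to day 21, 5 rose and 8 fell, beside 13.7% and 24.4% of all genes. From day 2 to day 21, 4 rose and 7 fell, beside 8.8% and 15.3%. Their mean ran from 10.43 to 10.49 at day 7 and from 9.95 to 10.39 at day 21. Markers of other cells were also present. Ptprc, the surface protein of all white blood cells, averaged 9.67, 8.16 and 10.16. Because the samples are bulk RNA, fewer cells of a type and less RNA per cell cannot be told apart.

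**Figure D1:**
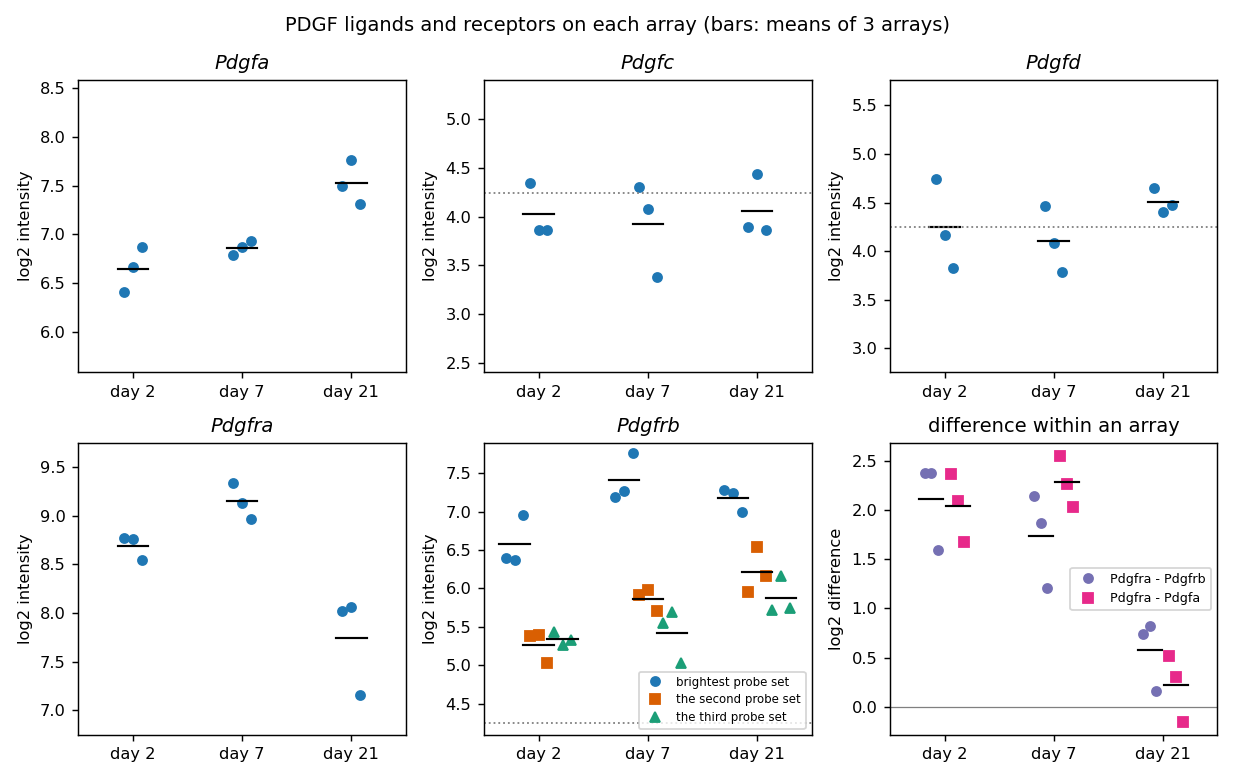
Log2 intensity (vertical axes) of the probe sets of the 5 measured PDGF genes on each of the 9 arrays, by postnatal day (horizontal axes), with the Pdgfra minus Pdgfrb and Pdgfra minus Pdgfa differences of each array in the last panel. Points are arrays, bars are means of 3 arrays and dotted lines mark the low end, 4.25. Pdgfra is highest at day 7 and lowest at day 21, Pdgfa is highest at day 21, and Pdgfc and Pdgfd lie around the dotted line.

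Pdgfa encodes the A chain, a ligand of the alpha receptor. Its log2 intensities were 6.41, 6.66 and 6.87 at day 2, 6.79, 6.87 and 6.93 at day 7, and 7.50, 7.77 and 7.31 at day 21. All 3 day 21 arrays lay above the other 6, and the days 2 and 7 arrays overlapped. From day 7 to day 21 Pdgfa rose by 0.66 ± 0.17 (SE, n = 3 per day; 1.58-fold; 95% interval 0.29 to 1.04; limma, Benjamini-Hochberg adjusted p = 0.0111). Against day 2 it rose by 0.88 ± 0.17 (1.84-fold; limma adjusted p = 0.00432). Day 7 lay 0.22 ± 0.17 above day 2 (95% interval -0.16 to 0.59; limma adjusted p = 0.542), so the order of these neighbouring days was not resolved. Both calls against day 21 held with any of the 9 arrays left out.

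Markers of macrophages, a known source of PDGF-A, rose in the same interval, 24 of 25 between days 7 and 21, beside 13.7% of all genes. Their mean lay between 7.20 and 8.05 (log2) at day 7 and between 9.47 and 9.94 at day 21. With that level as a covariate, the Pdgfa change from day 7 to day 21 was 0.97 ± 0.57 (SE; limma adjusted p = 0.591) and that from day 2 to day 21 was 0.98 ± 0.25 (limma adjusted p = 0.0619), both without a call. The macrophage level moved with the days, so the shares of day and of macrophages in the Pdgfa value cannot be told apart. Platelets store PDGF protein, and Pf4, a platelet chemokine also found in macrophages, rose by 1.82 ± 0.25 from day 7 to day 21. The platelet gene Ppbp averaged 5.75 at day 7 and 5.78 at day 21. Of 9 platelet and megakaryocyte markers, 1 rose, 1 fell and 7 did not pass the test in that interval. Over all genes 13.7% were called higher and 24.4% lower, and these 9 markers are too few to be set apart from that. The airway secretory gene Scgb1a1 averaged 10.01, 7.65 and 10.81 at the 3 days, and the mean of 21 epithelial markers ran from 5.95 to 6.38 at day 7 and from 6.45 to 6.82 at day 21. Of these 21, 7 rose and 4 fell from day 7 to day 21, beside 13.7% and 24.4% of all genes. The epithelial markers thus did not move as a whole. The part of platelet and epithelial RNA in the Pdgfa values was not tested.

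Pdgfc encodes a ligand with a CUB domain that acts mainly on the alpha receptor. Its log2 intensities were 4.35, 3.86 and 3.86 at day 2, 4.31, 4.08 and 3.38 at day 7, and 3.89, 4.43 and 3.86 at day 21. Of these, 6 of 9 were under the low end and the 3 days overlapped. The change from day 7 to day 21 was 0.14 ± 0.25 (SE; 95% interval -0.41 to 0.70; limma adjusted p = 0.736).

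Pdgfd encodes the CUB-domain ligand that acts mainly on the beta receptor. Its log2 intensities were 4.74, 4.17 and 3.83 at day 2, 4.46, 4.08 and 3.78 at day 7, and 4.65, 4.40 and 4.47 at day 21. On 4 of 9 arrays it was under the low end, all of them at days 2 and 7. The change from day 7 to day 21 was 0.40 ± 0.24 (SE; 95% interval -0.12 to 0.91; limma adjusted p = 0.246). At this signal no change of either gene was resolved, and changes of a size within the intervals given remain possible.

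Pdgfra encodes the alpha receptor, which binds the A, B and C chains. Its log2 intensities were 8.77, 8.76 and 8.55 at day 2, 9.34, 9.14 and 8.97 at day 7, and 8.02, 8.06 and 7.16 at day 21. The 3 days did not overlap, with day 7 highest and day 21 lowest, and the day 21 arrays spread the most. The means were 8.69 ± 0.13 (SD, n = 3), 9.15 ± 0.18 and 7.75 ± 0.51. Between days 7 and 21 Pdgfra fell by 1.40 ± 0.23 (SE; 95% interval -1.90 to -0.90; limma adjusted p = 0.000547), a change that 5.93% of genes lay below. Against day 2 it fell by 0.95 ± 0.23 (limma adjusted p = 0.0133). Day 7 lay above the mean of days 2 and 21 by 0.93 ± 0.20 (1.90-fold; limma adjusted p = 0.00452). The step from day 2 to day 7 was 0.46 ± 0.23 (95% interval -0.04 to 0.95; limma adjusted p = 0.279) and did not pass the test. The comparison with the mean of days 2 and 21 takes in the fall to day 21. It therefore does not by itself show a maximum at day 7.

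One day 21 array added to the size of the fall. Day 21 replicate 3 had the lowest Pdgfra level, 7.16, as well as the lowest mean of the general fibroblast markers, 9.95, and the highest mean of the macrophage markers, 9.94. Without this array Pdgfra fell by 1.11 ± 0.17 from day 7 to day 21 (limma adjusted p = 0.000736) and by 0.65 ± 0.17 from day 2 (limma adjusted p = 0.0295). With every array centred on its general fibroblast markers the fall from day 7 was 1.17 ± 0.24 on the log2 scale (a change of -1.17; limma adjusted p = 0.000873). With the macrophage level as a covariate the change was -0.97 ± 0.77 (limma adjusted p = 0.687) and the call was lost, and day and macrophage level cannot be told apart here.

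Pdgfrb encodes the beta receptor, the receptor of pericytes and of many fibroblasts. On its brightest probe set, 1370642_s_at, the log2 intensities were 6.40, 6.37 and 6.95 at day 2, 7.19, 7.27 and 7.76 at day 7, and 7.28, 7.24 and 7.00 at day 21. All day 7 and day 21 arrays lay above all day 2 arrays, and days 7 and 21 overlapped. The means were 6.58 ± 0.33 (SD, n = 3), 7.41 ± 0.31 and 7.17 ± 0.15. Pdgfrb rose by 0.83 ± 0.21 from day 2 to day 7 (SE; 95% interval 0.38 to 1.28; limma adjusted p = 0.0276). The change from day 7 to day 21 was -0.24 ± 0.21 (limma adjusted p = 0.446), and that from day 2 to day 21 was 0.60 ± 0.21 (limma adjusted p = 0.0650). Day 7 lay 0.53 ± 0.18 above the mean of days 2 and 21 (limma adjusted p = 0.0493).

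These calls were lost with some arrays left out, although the estimate from day 2 to day 7 stayed between 0.65 and 1.02. The rise from day 2 to day 7 was no longer called without the first or the second array of day 2, at 0.74 (limma adjusted p = 0.0859) and 0.73 (0.108), nor without the second or the third array of day 7, at 0.90 (0.0540) and 0.65 (0.0862). It was also lost with arrays centred on their medians, at 0.74 (limma adjusted p = 0.0909). Macrophage markers fell in that interval, 16 of 25, beside 4.41% of all genes. With the macrophage mean as a covariate the Pdgfrb change was 0.21 ± 0.44 (SE; limma adjusted p = 0.868). With that covariate day 7 against the mean of days 2 and 21 turned to -0.25 ± 0.52 (limma adjusted p = 0.880). Day and macrophage level cannot be told apart for Pdgfrb either. The excess of day 7 over the mean of the other days was called only without day 2 replicate 3 (0.63, limma adjusted p = 0.0180) and lost without any one of the other 8 arrays (0.36 to 0.64). The day 21 against day 2 change became a call without day 2 replicate 3 (0.79, limma adjusted p = 0.0232) or without day 7 replicate 3 (0.60, limma adjusted p = 0.0393).

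The other Pdgfrb probe sets gave other estimates. Probe set 1379211_at read 5.39, 5.40 and 5.02 at day 2, 5.91, 5.98 and 5.71 at day 7, and 5.95, 6.54 and 6.16 at day 21. It rose by 0.95 ± 0.19 from day 2 to day 21 (SE; limma adjusted p = 0.00432), with 0.60 ± 0.19 between days 2 and 7 (limma adjusted p = 0.0701). Probe set 1391394_s_at read 5.43, 5.26 and 5.33 at day 2, 5.54, 5.69 and 5.03 at day 7, and 5.72, 6.16 and 5.75 at day 21. Its change was 0.08 ± 0.19 from day 2 to day 7 (limma adjusted p = 0.876) and 0.54 ± 0.19 from day 2 to day 21 (limma adjusted p = 0.0758). The changes from day 7 to day 21 were -0.24, 0.35 and 0.46 for the brightest, the second and the third probe set, and none passed the test. All 3 probe sets were higher at day 21 than at day 2, and on each of them the 3 day 21 arrays lay above the 3 day 2 arrays. The difference between the second and the third probe set on an array averaged -0.07, 0.45 and 0.34 at the 3 days. It varied between days (exact permutation test, p = 0.0214, adjusted over 5 differences 0.0357). The difference of the brightest from the second did not pass (exact permutation test, p = 0.307, adjusted 0.307). Nor did that of the brightest from the third (exact permutation test, p = 0.121, adjusted 0.152). A separate course of the brightest probe set was thus not resolved. An excess of day 7 over the mean of days 2 and 21 was called for the brightest probe set only. Its days 7 and 21 were not resolved, so a peak at day 7 was not shown.

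Over the 5 measured genes, 1 of 5 rose from day 2 to day 7 and 0 fell, where limma called 11.4% of all 14217 genes, 7.02% as higher and 4.41% as lower. Between days 7 and 21, 1 rose and 1 fell, against 38.1% of genes called, 13.7% as higher and 24.4% as lower. Between days 2 and 21, 1 rose and 1 fell, against 24.1% called, 8.8% as higher and 15.3% as lower. Day 7 exceeded the mean of days 2 and 21 for 2 of 5 genes and lay below it for 0, against 30.5% called, 20.6% as higher and 9.93% as lower. With 5 genes these shares do not set the family apart from the other genes on the arrays. The median change of all genes was 0.07, -0.01 and 0.02 in the 3 steps from day 2 to 7, day 7 to 21 and day 2 to 21.

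**Figure D2:**
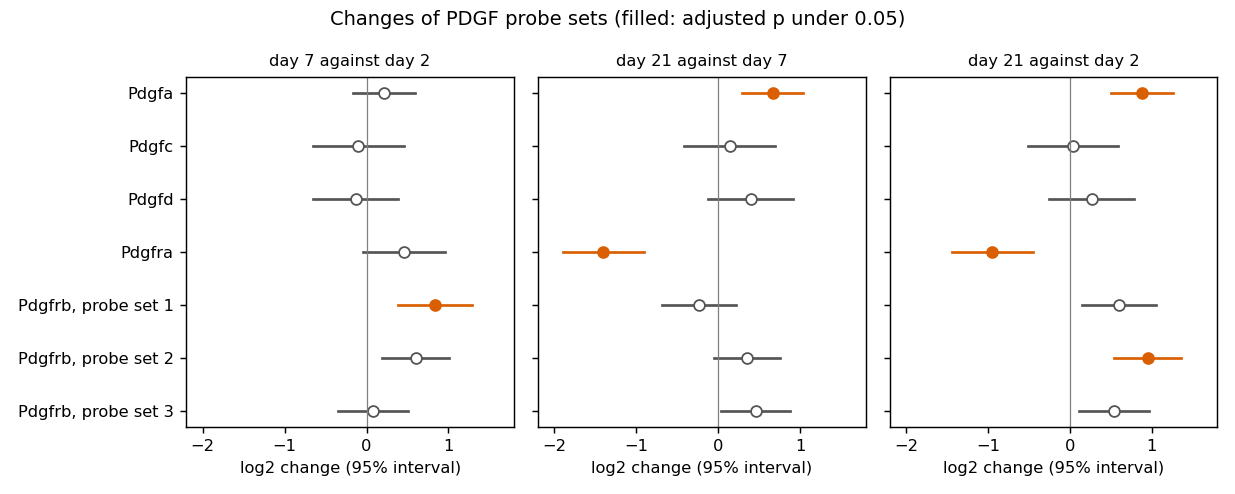
Log2 change (horizontal axes) with its 95% interval for each of the 7 probe sets of the PDGF genes, in 3 comparisons between days, with filled points for an adjusted p under 0.05. The Pdgfra interval from day 7 to day 21 runs from -1.90 to -0.90 and that of Pdgfa from 0.29 to 1.04, while the points of the 3 Pdgfrb probe sets lie on both sides of 0 in that comparison.

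**Figure D3:**
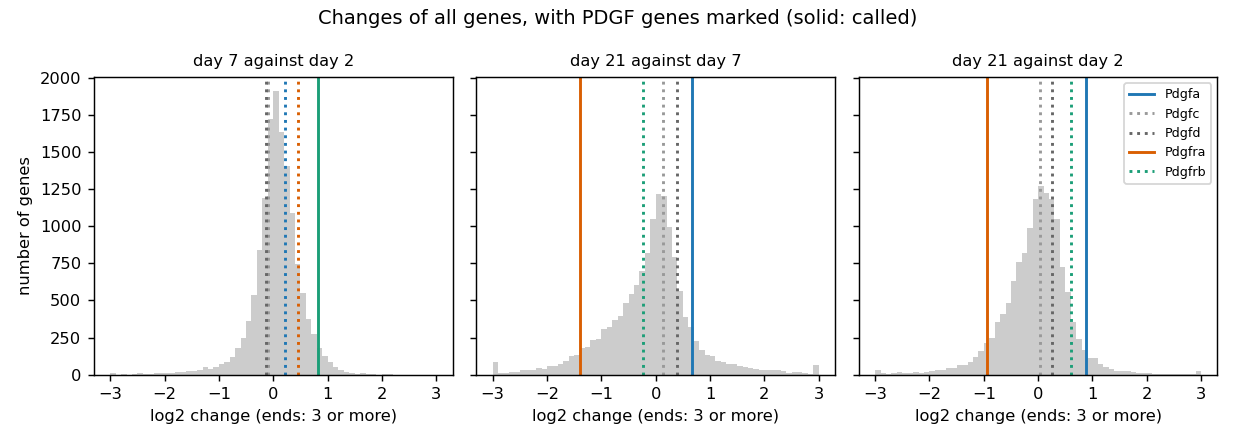
Number of genes (vertical axis) by log2 change (horizontal axes, the end bins holding changes of 3 or more in size) for all 14217 genes in 3 comparisons between days, with vertical lines for the PDGF genes, solid where called. Pdgfra lies in the lower tail from day 7 to day 21, where 5.93% of genes lay below it, and Pdgfa lies in the upper tail from day 2 to day 21.

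Each member was also tested across the 3 days at once with an exact permutation test of its variance between days, over the 1680 ways of dividing the 9 arrays, which cannot give a p under 0.00357. Pdgfra reached this smallest p of 0.00357 (exact permutation test, adjusted over 5 genes 0.0179), with a share of 0.832 of its variance between days. Pdgfa had p = 0.0107 (exact permutation test, adjusted 0.0268) and Pdgfrb p = 0.0179 (exact permutation test, adjusted 0.0298). Pdgfd had p = 0.389 and Pdgfc p = 0.882 in the same exact permutation test, and neither passed.

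Differences between probe sets of an array do not depend on how arrays are centred. Pdgfra minus Pdgfrb was 2.38, 2.38 and 1.59 at day 2, 2.15, 1.87 and 1.21 at day 7, and 0.74, 0.83 and 0.16 at day 21. The day 21 arrays lay below all others, and days 2 and 7 overlapped. The mean difference changed by -1.16 from day 7 to day 21, and varied between days (exact permutation test, p = 0.0179, adjusted over 5 differences 0.0357). Pdgfra minus Pdgfa averaged 2.04 ± 0.35 (SD, n = 3), 2.28 ± 0.26 and 0.22 ± 0.34 at the 3 days, a change of -2.06 from day 7 to day 21. This difference varied between the 3 days (exact permutation test, p = 0.0179, adjusted 0.0357), and the test does not single out 1 interval. The latter pair was chosen after the values were seen. Such differences show that the probe sets changed unequally and say nothing of the relative abundance of the transcripts.

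The 5 genes with the most similar pattern to each member were ranked by Pearson's r of log2 intensity over the 9 arrays, among 7618 genes, as a description. The arrays share the 3 days, so any gene that changes with age can rank high. For Pdgfra they were Rcbtb1 (r = 0.989), Nckap1, Emsy, Hnrnpr and Serinc5 (r = 0.978). For Pdgfa they were Igtp (r = 0.991), Snai1, Ier3, Cdr2 and Ecm1 (r = 0.975). Snai1 encodes a repressor of epithelial genes, and Ier3 is an early response gene. For Pdgfrb they were Mxra8 (r = 0.960), Usp2, Abhd8, Mxd1 and C2cd2l (r = 0.932). The closest genes to Pdgfc and Pdgfd were Gip (r = 0.949) and Etv3 (r = 0.945), for profiles that lay near the low end.

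Of 14 measured genes for proteins that mature and bind the ligands, 6 rose, 1 fell and 7 did not pass the test from day 7 to day 21, where 13.7% of all genes were called higher and 24.4% lower. The median change was 0.16 against -0.01 for all genes. Between days 2 and 7, 1 rose and 1 fell, beside 7.02% and 4.41% of all genes. Pcsk5, a proprotein convertase, rose by 0.58 ± 0.15 (SE) from day 2 to day 7 and by 0.51 ± 0.15 from day 7 to day 21. The earlier call was lost with arrays centred on their medians (0.48, limma adjusted p = 0.184) or on the general fibroblast markers (0.55, limma adjusted p = 0.211). Nrp1 and Nrp2, the neuropilin co-receptors of VEGF and semaphorins, of which neuropilin-1 also binds PDGF, rose by 0.79 ± 0.15 and 1.38 ± 0.17 from day 7 to day 21. Nrp2 had fallen by 0.79 ± 0.17 on the log2 scale from day 2 to day 7. A2m, a protease inhibitor in plasma that binds PDGF, rose by 1.07 ± 0.19 after day 7, and Bgn, a matrix proteoglycan, fell by 0.56 ± 0.15. The Bgn call was lost under the same centrings, at -0.45 (limma adjusted p = 0.0886) and -0.33 (limma adjusted p = 0.268).

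Of 27 measured genes for proteins that carry the signal from the receptors, 1 rose from day 2 to day 7, beside 7.02% of all genes. It was the kinase gene Akt1, by 0.57 ± 0.16 (SE). This call was lost with arrays centred on their medians (0.48, limma adjusted p = 0.231) or on the general fibroblast markers (0.55, limma adjusted p = 0.232). In the later interval 6 of 27 rose and 6 fell, beside 13.7% and 24.4% of all genes, so the number that fell was near the share over the arrays. The median change of -0.20, against -0.01 for all genes, became 0.03 against 0.21 with arrays centred on the general fibroblast markers. It thus lay below that of all genes in both settings. Those that fell included the Src-family kinase gene Yes1, with a change of -1.90 ± 0.22, the adaptor gene Nck2 (-1.42 ± 0.17), the phospholipase gene Plcg1 (-1.26 ± 0.19), Akt1 (-0.93 ± 0.16) and the docking protein gene Gab1 (-0.89 ± 0.22). Stat5a, a transcription factor of cytokine and growth factor receptors, rose by 0.86 ± 0.20.

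Among 20 measured attenuators, the phosphatases and feedback inhibitors of the receptors, 1 rose and 3 fell from day 2 to day 7. Over all genes 7.02% were called higher and 4.41% lower in that interval. From day 7 to day 21, 8 rose and 3 fell, beside 13.7% and 24.4% of all genes. Ptprj, a phosphatase that acts on PDGF receptors, fell by 1.28 ± 0.21 (SE) and then rose by 1.89 ± 0.21. Inpp5d, the lipid phosphatase of blood cells, fell by 1.04 ± 0.24 and then rose by 2.05 ± 0.24. Macrophage markers took the same course, with 16 of 25 lower at day 7 than at day 2 and 24 of 25 higher at day 21 than at day 7, and their part in these values was not tested. Spry4, a feedback inhibitor of growth factor signalling, went the other way, with a rise of 1.11 ± 0.20 and then a change of -1.33 ± 0.20. The cytokine feedback gene Socs3 and the phosphatase gene Dusp5 rose by 2.37 ± 0.28 and 2.10 ± 0.18 from day 7 to day 21.

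Early genes that PDGF or serum induces in cultured fibroblasts were measured for 23 of 25 listed. Between days 2 and 7, 4 rose and 2 fell (2 and 3 with arrays centred on their medians), beside 7.02% and 4.41% of all genes. From day 7 to day 21, 9 rose and 3 fell, beside 13.7% and 24.4% of all genes, with a median change of 0.34. Has2, which makes hyaluronan, and Ccnd1, the cyclin of growth factor response, fell from day 7 to day 21, with changes of -1.99 ± 0.30 (SE) and -1.77 ± 0.30. The transcription factor genes Fosl1, Junb and Myc rose by 2.34 ± 0.23, 1.24 ± 0.21 and 1.04 ± 0.20. Fos rose by 1.01 ± 0.17 and Nr4a1 by 1.08 ± 0.15 between days 2 and 7, while Fosl1 fell by 1.33 ± 0.23.

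**Figure D4:**
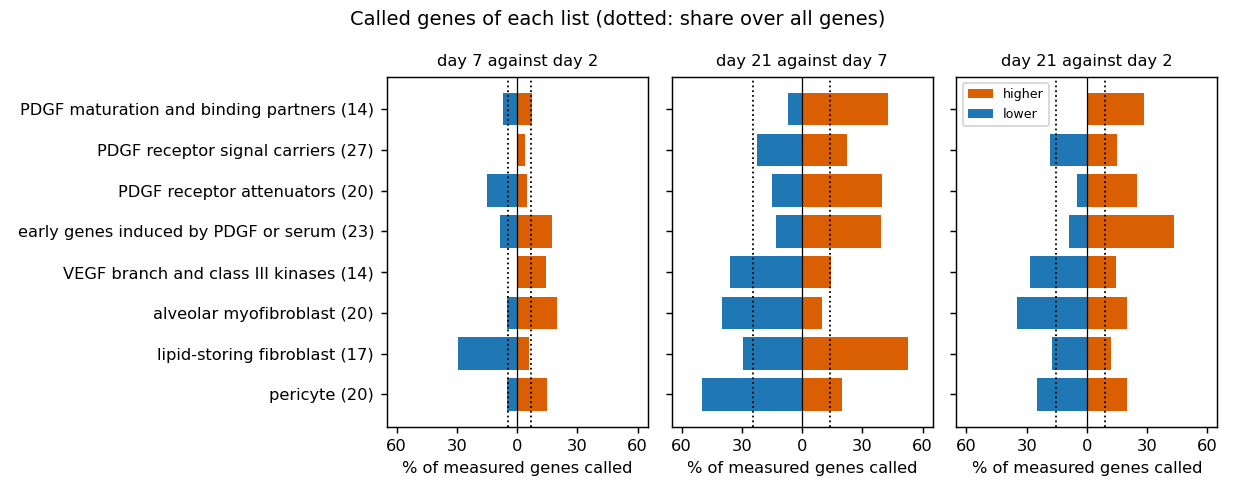
Percent of the measured genes of each list (horizontal axes, list size in brackets) that limma called higher (bars to the right) or lower (bars to the left), in 3 comparisons between days, with dotted lines at the shares over all genes. From day 7 to day 21 the higher bar of every list but alveolar myofibroblast (2 of 20) reaches past the dotted line at 13.7%. The lower bars of pericyte (10 of 20), alveolar myofibroblast (8 of 20), VEGF branch (5 of 14) and lipid-storing fibroblast markers (5 of 17) reach past that at 24.4%.

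The cells that carry the receptors were followed by their markers. Of 20 alveolar myofibroblast markers, 4 rose and 1 fell from day 2 to day 7, beside 7.02% and 4.41% of all genes. From day 7 to day 21, 2 rose and 8 fell, beside 13.7% and 24.4% of all genes. The later median was -0.48 against -0.01 for all genes. The elastic fibre genes Fbln5, Fbn2 and Loxl1 fell in the later interval, as did Pdgfra, with changes of -3.36 ± 0.28 (SE), -3.24 ± 0.21 and -2.10 ± 0.16. Acta2, smooth muscle actin, rose by 0.64 ± 0.21, so the list did not move as a whole. The myofibroblast mean ran from 9.63 to 9.77 at day 7 and from 8.57 to 9.13 at day 21, and was lowest in the array with the lowest Pdgfra. In lipid-storing fibroblasts, which also carry the alpha receptor, the transcription factor genes Zfp423 and Tcf21 fell from day 7 to day 21, with changes of -3.77 ± 0.17 and -2.44 ± 0.26. Over all 17 markers of these cells 9 rose and 5 fell in that interval, beside 13.7% and 24.4% of all genes. The risers included Lpl and Lipa, lipases that macrophages also make, and Plin2, a coat protein of lipid droplets, by 0.91 ± 0.18.

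Pericytes carry the beta receptor. Of 20 pericyte markers, 3 rose and 1 fell from day 2 to day 7, beside 7.02% and 4.41% of all genes. The median change was 0.41. From day 7 to day 21, 4 rose and 10 fell, beside 13.7% and 24.4% of all genes, with a median of -0.54. The 10 falls became 8 after quantile normalization or with median centring, and 7 with fibroblast centring. Gucy1a1 and Gucy1b1, the subunits of the nitric oxide receptor, rose by 1.27 ± 0.28 (SE) and 1.17 ± 0.23 up to day 7 and fell after it, with changes of -2.62 ± 0.28 and -1.51 ± 0.23. Cspg4, which encodes the pericyte proteoglycan NG2, averaged 5.26, 5.40 and 4.65, and Rgs5 averaged 5.64, 6.21 and 5.20. The pericyte mean ran from 6.93 to 7.05 at day 7 and from 6.53 to 6.71 at day 21. With that mean as a covariate, chosen after seeing the data, the Pdgfrb change from day 2 to day 7 was 1.25 ± 0.64 (limma adjusted p = 0.773), the Pdgfra change from day 7 to day 21 was -0.79 ± 0.71 (limma adjusted p = 0.714), and neither was called.

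Endothelium, the main source of the B chain, had a mean over 20 markers of 6.27 to 6.60 at day 7 and 5.17 to 5.57 at day 21. Between days 7 and 21, 0 of these rose and 13 fell, beside 13.7% and 24.4% of all genes. The falls became 11 after quantile normalization or with median centring, and 10 with fibroblast centring, where 1 rose. Pecam1 averaged 6.78, 7.16 and 6.57 at the 3 days, and its call after day 7 was lost under each of these settings. At day 21, 5 of the 20 were below the low end. With the endothelial mean as a covariate the Pdgfra change from day 7 to day 21 was -0.86 ± 0.77 (SE; limma adjusted p = 0.715) and the Pdgfa change was 1.27 ± 0.56 (limma adjusted p = 0.387), and neither passed the test.

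**Figure D5:**
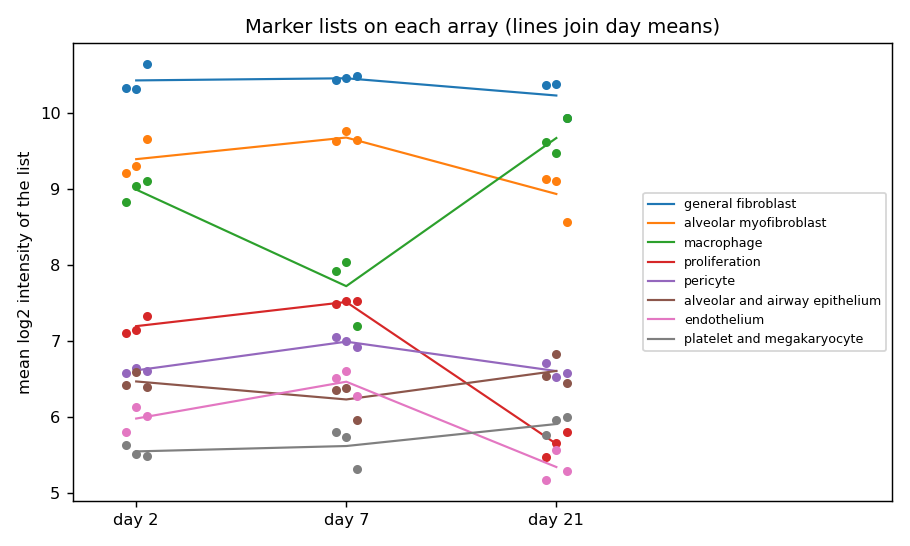
Mean log2 intensity (vertical axis) of 8 marker lists on each of the 9 arrays, by postnatal day (horizontal axis), with points for arrays and lines joining day means. The macrophage mean is lowest at day 7, between 7.20 and 8.05, the pericyte and endothelial means are highest at day 7, and the general fibroblast mean lies between 9.95 and 10.65, its lowest point hidden behind a macrophage point at day 21.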

How the data were processed

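RNA of 9 rat lung fibroblast samples (3 litters per day) was measured on single-colour Affymetrix arrays. The values deposited by the authors are a linear intensity for each probe set, from which log2 was taken. Per the submitters' processing notes, RMA and the affy package were used, with versions not given in the sources read. RMA itself returns log2 values, so the linear file does not match that step alone, and every change printed assumes that the deposited values are plain intensities. The array medians also differed, from 5.24 to 5.66 on the log2 scale, so the deposited arrays do not share 1 distribution. RMA, if applied as the notes say, compresses changes of dim probe sets, and the number of arrays limits the precision.

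Of 31099 probe sets, 57 control probe sets were left out. The platform annotation gave 1 symbol for 20826 of the rest, several for 436 and none for 9780, and of those with 1 symbol 20758 were found by Entrez number in the RefSeq table and 0 changed name. Another 0 columns belonged to other samples.

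All 31042 probe sets were fitted with limma 3.58.1 in R 4.3.3 by lmFit and eBayes, with a mean for each day over 9 arrays and no covariates, leaving 6 residual degrees of freedom beside 5.69 from the prior. Tests were two-sided, with Benjamini-Hochberg adjustment over all probe sets of a comparison and calls at an adjusted p under 0.05. The fit was tested on simulated data. Litter numbers are not stated to mark the same litter on different days, and 2 of 9 pairs of samples with the same number had correlated deviations over 0.1, so no pairing was used.

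The members and lists were chosen with earlier results of these data known. Named genes were the members, up to 6 called genes per list and comparison with the largest change, and the 5 genes most like each member (standard deviation of at least 0.3). Some cell markers (Col3a1, Vim, Ptprc, Ppbp, Scgb1a1, Acta2, Plin2, Cspg4, Rgs5, Pecam1) were named outside this rule, after their values were seen. Promoters came from the RefSeq table of GRCr8, and no other sequence was used. Alternatives covered scaling, covariates, filters, weights, probe sets, the litter block and each array left out.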

Additional observations from a re-analysis of the deposited data

How the results depend on the processing

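The deposited scaling gave 1707 probe sets higher and 1068 lower from day 2 to day 7. Every change given here is a log2 value. Of the member changes under the alternatives other than leaving out an array, 188 kept their direction and side of the threshold, 27 lost a call, 4 gained one and 20 turned sign. Where a cause is not named, it was not tested.

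By scaling, quantile normalization gave Pdgfrb 0.74 (day 21 against 2, called) and 0.41 (day 7 against the mean of days 2 and 21, lost), Pdgfc -0.043 (day 21 against 2) and 3397 probe sets higher at day 21 than day 2. Median centring moved the median gene by 0.11 from day 7 to 21 and gave Pdgfrb 0.74 (day 7 against 2) and 0.43 (day 7 against the mean), both lost, and 902 probe sets higher at day 7 than day 2. Centring on fibroblast markers moved the median gene by 0.23 from day 7 to 21. It gave Pdgfrb 0.80 (day 21 against 2, called) and 0.41 (day 7 against the mean, lost), 703 higher and 703 lower at day 7 than day 2, 3383 lower at day 21 than day 7, 1636 lower at day 21 than day 2, and 2615 higher at day 7 than the mean.

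With macrophage markers as covariate every member call was lost. For day 2 to 7 Pdgfrb was 0.21, Pdgfc 0.39 and Pdgfd 0.11, with 0 higher and 0 lower probe sets by limma (3406 at an unadjusted p under 0.05). For day 7 to 21 Pdgfa was 0.97, Pdgfra -0.97, Pdgfc -0.62 and Pdgfrb 0.72, with 2 higher and 7 lower. For day 2 to 21 Pdgfa was 0.98, Pdgfra -0.79 and Pdgfc -0.23, with 365 higher and 860 lower. For day 7 against the mean Pdgfra was 0.57, Pdgfrb -0.25, Pdgfc 0.50 and Pdgfd 0.049, with 0 higher and 0 lower by limma (2994 unadjusted).

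With endothelial markers as covariate, chosen after seeing the data, Pdgfrb was 1.03, Pdgfa -0.047 and Pdgfd 0.056 from day 2 to 7. From day 7 to 21 Pdgfa was 1.27, Pdgfra -0.86 and Pdgfd -0.042, from day 2 to 21 Pdgfa was 1.22 and Pdgfra -0.64, and against the mean Pdgfra was 0.54, Pdgfrb 0.86 and Pdgfd 0.049. With pericyte markers, also chosen after seeing the data, Pdgfrb was 1.25 and Pdgfra -0.14 from day 2 to 7, Pdgfa 0.40 and Pdgfra -0.79 from day 7 to 21, and Pdgfra 0.33, Pdgfrb 0.96 and Pdgfa 0.032 against the mean. The pericyte covariate kept the Pdgfa and Pdgfra calls from day 2 to 21, and neither covariate kept any other.

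Fitting only days 2 and 7 gave Pdgfrb 0.83 (adjusted p = 0.0505, limma). Array weights gave Pdgfrb 0.69 (day 21 against 2, called), Pdgfc 0.081 (day 7 against 2) and 0.032 (against the mean), and 2982 probe sets higher at day 7 than day 2. The second Pdgfrb probe set gave 0.60 (day 7 against 2, lost), 0.35 (day 21 against 7), 0.95 (day 21 against 2, called) and 0.12 (against the mean, lost). The third gave 0.082 (lost), 0.46 and, against the mean, -0.19. Trended variance, the dim filter and an offset of 16 changed no member call.

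Same-numbered litters had correlations of -0.24 to 0.41, with 2 of 9 pairs over 0.1, so the numbers were not taken as pairs. The replicate block left Pdgfrb at 0.53 for day 7 against the mean, with the call lost (adjusted p = 0.0505, limma), and changed no other member call.

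Leaving out each array in turn, Pdgfrb ran from 0.65 to 1.02 (day 7 against 2), 0.50 to 0.79 (day 21 against 2) and 0.36 to 0.64 (day 7 against the mean). Pdgfc ran from -0.30 to 0.17 (day 7 against 2), -0.13 to 0.33 (day 21 against 7), -0.15 to 0.20 (day 21 against 2) and -0.32 to 0.15 (against the mean), and Pdgfd from -0.34 to 0.11 (day 7 against 2). Higher probe sets ran from 850 to 1814 and lower ones from 673 to 1155 (day 7 against 2), both fewest without day 2 replicate 2, and higher ones from 1186 to 2565 (day 21 against 2). Every Pdgfa and Pdgfra call was kept. The planned difference of Pdgfa and Pdgfb was not run because Pdgfb had no value. Members near the low end of the signal limit what can be seen for Pdgfc and Pdgfd.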

Other observations

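Relatives of the PDGF family on the same arrays included the VEGF ligands, which share the cystine-knot fold, and the class III receptor kinases. Vegfd, a lymphatic growth factor, rose by 0.81 ± 0.16 (SE) from day 2 to day 7 and fell by 3.86 ± 0.16 on the log2 scale from day 7 to day 21 (limma adjusted p = 8.01e-08). Vegfa fell by 1.25 ± 0.22, and the VEGF receptor genes Kdr and Flt1 fell by 1.54 ± 0.26 and 1.24 ± 0.18, from day 7 to day 21. Csf1r, the class III receptor of macrophages, rose by 1.21 ± 0.23 in that interval, and Il34, a ligand of this receptor, rose by 0.89 ± 0.20 from day 2 to day 7. Both rises up to day 7 lost their call with arrays centred on the general fibroblast markers, Vegfd at 0.78 (limma adjusted p = 0.0637) and Il34 at 0.86 (limma adjusted p = 0.0560). Over the 14 measured genes of this group 2 rose and 5 fell from day 7 to day 21, where 13.7% of all genes were called higher and 24.4% lower. The count was 5 and 5 after quantile normalization, 4 and 5 with arrays centred on their medians, and 4 and 4 with fibroblast centring, so it held no lean in one direction across scalings.

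Proliferation genes fell in the interval in which Pdgfra fell. Of 22 measured, 5 rose and 0 fell from day 2 to day 7, where 7.02% of all genes were called higher and 4.41% lower. From day 7 to day 21, 0 rose and 19 fell, beside 13.7% and 24.4% of all genes, with a median change of -1.96. The 5 rises became 2 with arrays centred on their medians, and each lost its call with arrays centred on the general fibroblast markers, whereas 19 and 17 fell from day 7 to day 21 under those settings. The mean over the list lay between 7.48 and 7.53 (log2) at day 7 and between 5.47 and 5.80 at day 21.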
